A study of Danio rerio with 12 samples.

Results

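The genes described here are 4 digestive enzyme genes of the exocrine pancreas of the zebrafish: ela2 (ENSDARG00000056744), ela2l (ENSDARG00000056765), amy2a (ENSDARG00000013856) and cpb1 (ENSDARG00000045442, listed as CPB1 in the supplied table of names). They were taken by identifier and are 4 of the 25473 genes in the deposited count table. They were chosen by their counts in these same 12 libraries, which were known when they were picked, so their levels and differences are given as a description, with no test. Polyadenylated RNA was sequenced from larvae at 3 days post-fertilization in 3 groups of 4 libraries. The groups were yap taz mutant larvae (yap-/-;taz-/-), yap mutant larvae (yap-/-) and wild type larvae (WT), so that loss of yap is shared by both mutant groups. The labels do not state the kind of mutation, the strain or the number of larvae per library. The source is named only as larvae, with no dissected organ. In such bulk RNA, fewer cells of a type and less RNA per cell cannot be told apart.

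The exocrine pancreas is made of acinar cells, which synthesise digestive enzymes in bulk, store them in zymogen granules and release them through ducts into the gut. Many of the enzymes are proteases made as inactive precursors. In the zebrafish the acinar cells differentiate during the first days of development, under the transcription factor Ptf1a, and the larva begins to feed after the stage sampled here. Elastases are serine proteases, amylase cleaves starch, and carboxypeptidase B removes basic residues from the ends of peptides. Yap and Taz (encoded by yap1 and wwtr1) are transcriptional co-activators controlled by the Hippo pathway, which act through TEAD factors.

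Library depth was 7028251 to 8657381 counts, and 3 counts, the upper limit that a count of 0 allows, amounted to 0.334 to 0.443 CPM (counts scaled to a common total, here by TMM effective library sizes throughout). The targeted genes were examined first. YAP1 stood at 69.9 ± 3.91 CPM in yap taz mutants and 59.9 ± 7.62 CPM in yap mutants, against 88.4 ± 7.99 CPM in WT (SD, n = 4 each), and was called lower in both (edgeR quasi-likelihood test, adjusted p = 0.0126 and 0.00149). WWTR1, the gene of Taz, averaged 5.56 ± 0.886 CPM in yap taz mutants, 10.4 ± 1.17 CPM in yap mutants and 7.03 ± 1.33 CPM in WT. It was lower in yap taz mutants than in yap mutants (adjusted p = 0.00673), higher in yap mutants than in WT (adjusted p = 0.0425), and not called in yap taz mutants against WT (adjusted p = 0.156). Both transcripts were thus still counted in the mutants, which does not check a lesion outside the counted part. On the first principal component of log2 CPM over all genes tested, 44.7% of the variance, the yap taz mutants lay at 31.2 to 39.6, yap mutant 4 at 21.2, the other yap mutants at -16.0 to 10.3 and WT at -48.6 to -27.4. The levels and folds of the 4 enzyme genes that rest on yap mutant 4 are therefore given with and without it.

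All 4 enzyme genes passed the filter on low counts. Their summed level was 49.5 ± 9.49 CPM in yap taz mutants, 213 ± 140 CPM in yap mutants and 563 ± 363 CPM in WT (SD, n = 4 each). The yap mutant sums were 186, 395, 216 and 54.9 CPM in replicates 1 to 4, so without replicate 4 they ran from 186 to 395 CPM. The elastase genes and the amylase gene stood 23.6 to 58.3-fold lower in yap taz mutants than in WT, and cpb1 4.35-fold lower. In yap mutants the 4 genes stood 2.17 to 3.16-fold lower than in WT by the fitted means, and every one of them overlapped with WT.

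Elastase gene ela2 had 2.66, 1.97, 3.25 and 4.86 CPM in yap taz mutants 1 to 4, which is 22, 15, 22 and 36 counts. It had 51.4, 148, 61.8 and 10.05 CPM in yap mutants 1 to 4 and 80.4, 362, 221 and 80.1 CPM in WT 1 to 4. All yap taz mutant libraries lay below all yap mutant and all WT libraries, whereas yap mutant 2 lay above WT 1 and WT 4. The log2 fold change was -5.86 ± 0.764 (SE) for yap taz mutants over WT, -4.41 ± 0.771 for yap taz mutants over yap mutants and -1.45 ± 0.547 for yap mutants over WT.

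The second elastase gene, ela2l, lies next to ela2 in the RefSeq annotation, with 0 genes between them. It had 1.94, 3.02, 5.47 and 1.75 CPM in yap taz mutants 1 to 4, 53.5, 76.6, 47.1 and 12.1 CPM in yap mutants 1 to 4, and 48.9, 297, 203 and 51.3 CPM in WT 1 to 4. Again the yap taz mutant libraries lay below every other library, and yap mutants 1 and 2 lay above both low WT libraries. The log2 fold change was -5.64 ± 0.725 for yap taz mutants over WT, -3.98 ± 0.743 for yap taz mutants over yap mutants and -1.66 ± 0.524 for yap mutants over WT. The ratio of ela2 to ela2l counts was 1.35 ± 1.01 in yap taz mutants, 1.26 ± 0.492 in yap mutants and 1.38 ± 0.266 in WT, so the group means of this ratio differed by less than the SD within any group. Reads shared by such close copies may have been split or dropped, since no source used here states the counting mode.

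Amylase gene amy2a had 1.09, 1.97, 1.77 and 3.24 CPM in yap taz mutants 1 to 4, which is 9, 15, 12 and 24 counts. It had 22.2, 42.7, 20.2 and 2.16 CPM in yap mutants 1 to 4 and 23.5, 71.6, 68.2 and 27.7 CPM in WT 1 to 4. The yap taz mutants lay below WT throughout, while yap mutant 4 fell inside the yap taz mutant range. The log2 fold change was -4.56 ± 0.677 for yap taz mutants over WT, -3.44 ± 0.714 for yap taz mutants over yap mutants and -1.12 ± 0.484 for yap mutants over WT.

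Carboxypeptidase gene cpb1 differed from the others in the size of its change. It had 32.7, 41.3, 51.0 and 40.2 CPM in yap taz mutants 1 to 4, which is 270, 314, 345 and 298 counts. It had 58.4, 128, 86.7 and 30.6 CPM in yap mutants 1 to 4 and 140, 275, 221 and 81.3 CPM in WT 1 to 4. The yap taz mutants lay below all WT libraries, but yap mutant 4 was lower than every yap taz mutant library. The log2 fold change was -2.12 ± 0.374 for yap taz mutants over WT, -0.88 ± 0.372 for yap taz mutants over yap mutants and -1.24 ± 0.358 for yap mutants over WT.

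**Figure D1:**
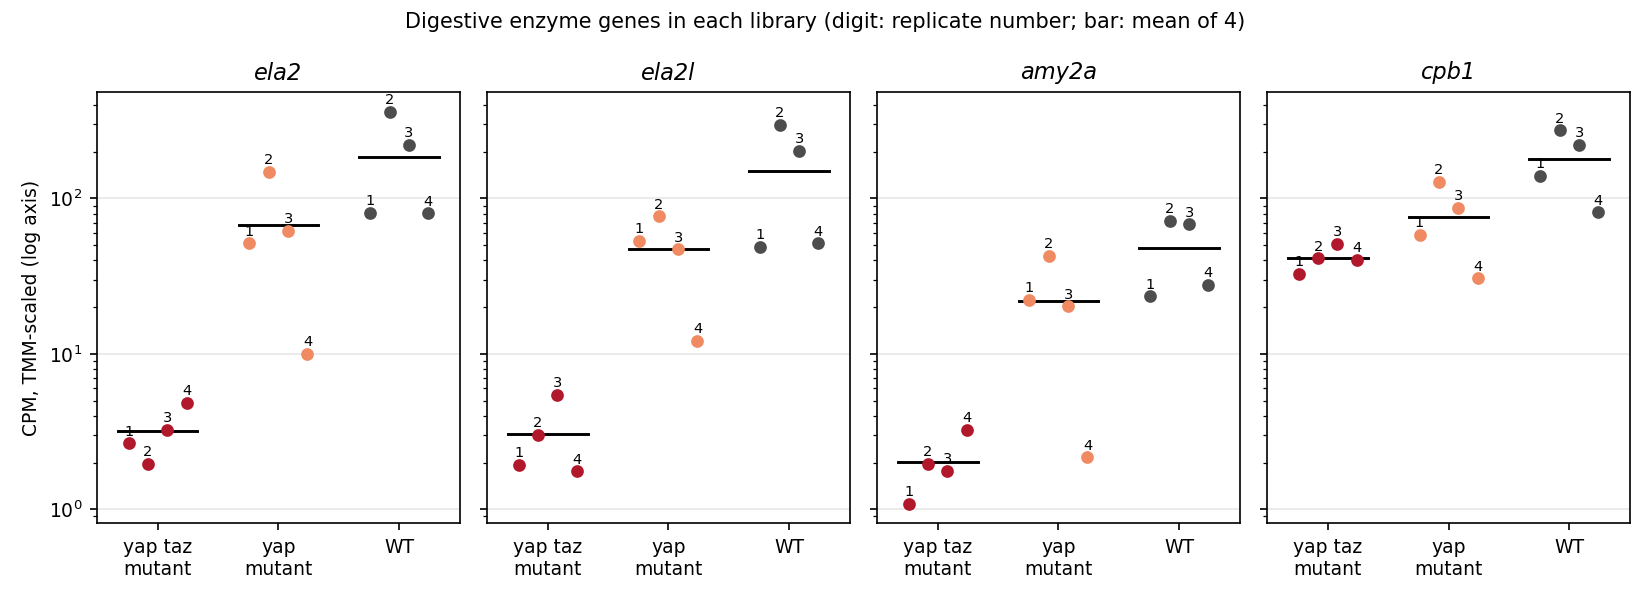
CPM (log axis) of ela2, ela2l, amy2a and cpb1 in each of the 12 libraries, in the order yap taz mutant, yap mutant, WT; each point is 1 library with its replicate number, and the bar is the mean of 4. The yap taz mutant libraries sit between 1.97 and 4.86 CPM for ela2 and between 32.7 and 51.0 CPM for cpb1, and yap mutant 4 is the lowest yap mutant library in every panel.

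As background to these values, all 4 genes lay below WT without overlap in yap taz mutants, a pattern held by 14.4% of all 19493 genes tested, and 0.549% of genes had a fitted change of 4-fold or more in that direction. Between yap taz mutants and yap mutants, 2 of the 4 did not overlap, against 5.53% of all genes. Between yap mutants and WT, 0 of the 4 were free of overlap, against 5.36% of all genes. Because the genes were picked for their levels, nothing further is read from these counts.

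The unequal change altered the make-up of the 4 genes' summed counts. Reads from cpb1 made up 83.5% ± 2.41 of the sum in yap taz mutants, 40.0% ± 11.2 in yap mutants and 35.0% ± 8.99 in WT (SD, n = 4 each). The share of ela2 was 6.50% ± 2.43 in yap taz mutants, 28.0% ± 7.80 in yap mutants and 31.9% ± 3.63 in WT. The share of ela2l was 5.93% ± 2.28 in yap taz mutants, 23.0% ± 4.08 in yap mutants and 24.02% ± 6.09 in WT, and that of amy2a was 4.07% ± 1.70, 9.02% ± 3.56 and 9.06% ± 1.94 in the same groups. The cpb1 share ran from 80.3% to 85.6% in yap taz mutants. In yap mutants it ran from 31.5% to 40.2% in replicates 1 to 3 and stood at 55.8% in replicate 4, which held 432 counts of the 4 genes against 1494 to 3120 in the other yap mutants. In WT it ran from 27.3% to 47.9%. These are shares of reads, which also depend on transcript length, so they compare groups and not the abundance of one gene with another.

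**Figure D2:**
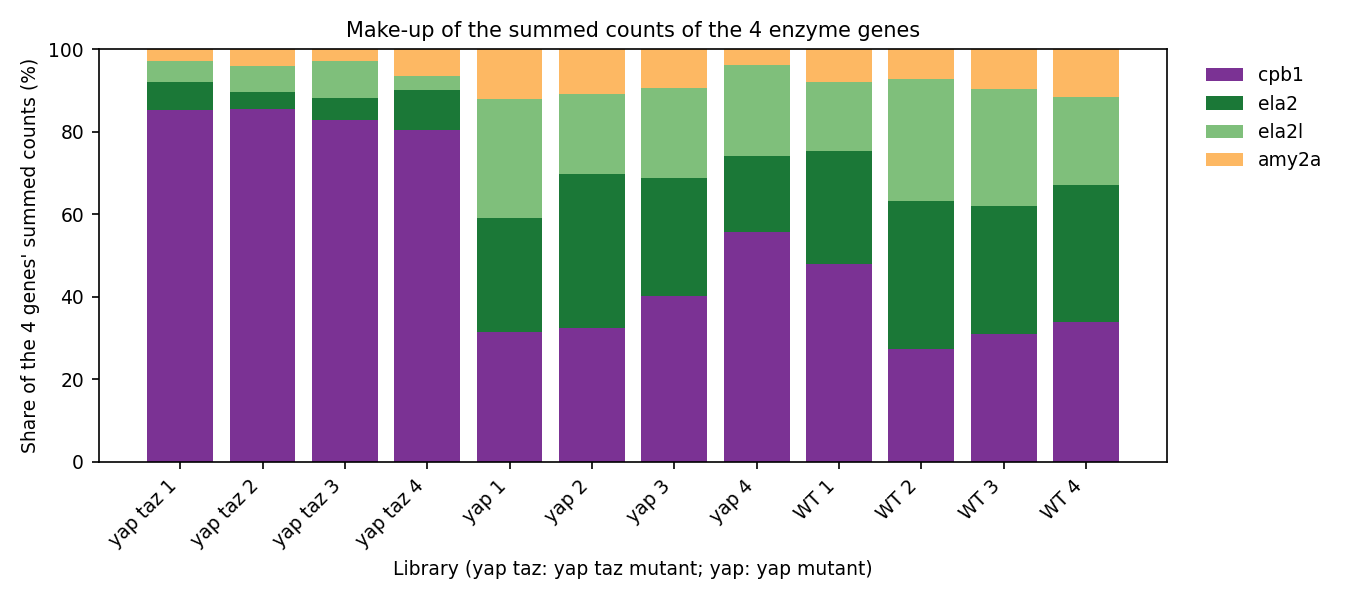
Share of each gene (%) in the summed counts of cpb1, ela2, ela2l and amy2a, 1 bar per library, with yap taz mutants at the left, yap mutants in the middle and WT at the right. The cpb1 share exceeds 80% in the 4 yap taz mutant libraries and is 55.8% in yap mutant 4.

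Replicates of one genotype differed widely. In yap taz mutants the SD of log2 CPM over the 4 libraries was 0.50 for ela2, 0.69 for ela2l, 0.57 for amy2a and 0.26 for cpb1, whereas the median gene had 0.17; amy2a and both elastase genes rested there on 9 to 37 counts per library. In yap mutants the SD was 1.6 for ela2, 1.16 for ela2l, 1.81 for amy2a and 0.88 for cpb1, against a median of 0.19, and 8 of the 19493 genes tested exceeded amy2a. These SDs include yap mutant 4, where amy2a had a log2 CPM of 1.27, against 4.36 to 5.43 in the other yap mutants. In WT the SD was 1.09 for ela2, 1.34 for ela2l, 0.84 for amy2a and 0.78 for cpb1, against a median of 0.19 and a 95th percentile of 0.55. In WT 24 genes had a larger SD than ela2l, and 280 had a larger one than cpb1. The highest WT library was 4.52 times the lowest for ela2, 6.07 times for ela2l, 3.05 times for amy2a and 3.38 times for cpb1.

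The 4 genes shared their highest and lowest libraries in part. Within the yap taz mutants the order of the libraries differed in all 4 genes. Within the yap mutants replicate 2 was the highest and replicate 4 the lowest in each gene. Within WT replicate 2 was the highest and replicate 3 the next in each, above replicates 1 and 4. The other ranks differed between genes: WT 1 was above WT 4 for ela2 and cpb1 and below it for ela2l and amy2a. Correlated over the 12 libraries, log2 CPM of the 6 gene pairs gave Pearson r of 0.889 to 0.98, and 0.798 to 0.942 after each group was centred on its mean. These correlations describe the 12 shared libraries only.

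Same-numbered yap mutant and WT libraries deviated together over all genes (r of 0.18 to 0.388), so the yap mutant levels were also set against the WT library of the same number. The ratio of yap mutant to WT for cpb1 was 0.416, 0.467, 0.392 and 0.377 in pairs 1 to 4. For ela2 it was 0.639, 0.408, 0.28 and 0.125. For ela2l it was 1.09, 0.258, 0.232 and 0.235, and for amy2a it was 0.947, 0.597, 0.297 and 0.0779. Thus cpb1 was lower in the yap mutant in 4 of 4 pairs, at 0.377 to 0.467 of the WT level, and in the other 3 genes the single exception was ela2l in pair 1. Without yap mutant 4, yap mutants stood 2.14-fold lower than WT for ela2, 2.54-fold for ela2l, 1.68-fold for amy2a and 1.97-fold for cpb1. Without yap mutant 2 they stood 4.52-fold lower than WT for ela2, 4.00-fold for ela2l, 3.21-fold for amy2a and 3.06-fold for cpb1. For yap taz mutants over yap mutants, the log2 fold change without yap mutant 4 was -4.77 for ela2, -4.3 for ela2l, -3.82 for amy2a and -1.15 for cpb1. Without yap mutant 2 it was -3.69 for ela2, -3.65 for ela2l, -2.89 for amy2a and -0.51 for cpb1.

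The rest of the digestive list held 32 further genes found in the table, for elastases, trypsins, chymotrypsins, carboxypeptidases, amylases, lipases and granule proteins, of which 26 passed the filter. This list and those that follow were chosen with earlier results of these data known, so their calls are no independent check. In yap taz mutants against WT, 22 of the 26 were called lower and 0 higher (edgeR quasi-likelihood test, Benjamini-Hochberg adjusted p under 0.05), or 84.6%, against 13.8% of all genes called lower. Their median log2 fold change was -2.40, against 0.008 over all genes. Of the 22, 15 were lower by 4-fold or more and 7 by 2-fold to 4-fold. All yap taz mutant libraries lay below all WT libraries in 19 of the 26, a pattern held by 14.4% of all genes tested.

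Trypsin gene prss59.1 had 11.1, 16.6, 18.3 and 22.7 CPM in yap taz mutants 1 to 4, 71.1, 152, 159 and 14.1 CPM in yap mutants 1 to 4, and 172, 460, 335 and 131 CPM in WT 1 to 4. As with amy2a, yap mutant 4 fell inside the yap taz mutant range. Its log2 fold change for yap taz mutants over WT was -4.00 ± 0.574 (edgeR, adjusted p = 9.14e-05).

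The elastase gene ela3l averaged 9.33 ± 6.45 CPM in yap taz mutants and 169 ± 126 CPM in WT (log2 fold change -4.20 ± 0.709, adjusted p = 0.000383). The chymotrypsinogen gene ctrb.2 averaged 9.21 ± 2.62 CPM in yap taz mutants and 119 ± 79.9 CPM in WT (-3.69 ± 0.668, adjusted p = 0.00065). The trypsin gene prss1 averaged 110 ± 16.7 CPM in yap taz mutants and 562 ± 299 CPM in WT (-2.35 ± 0.395, adjusted p = 0.000366).

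PLA2G1B, a secreted phospholipase, fell with a log2 fold change of -2.80 ± 0.467 (adjusted p = 0.00034). Syncollin, a protein of the zymogen granule, is represented by 2 tested genes listed as SYCN. The first (ENSDARG00000103687) had 10 to 19 counts in yap taz mutants and 121 to 439 in WT (-3.98 ± 0.659, adjusted p = 0.000314). The second (ENSDARG00000090899) had 0, 0, 0 and 2 counts in yap taz mutants and 31, 72, 41 and 17 in WT (adjusted p = 0.000253).

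Not all genes of the list were called lower. The elastase gene cela1.4 averaged 10.6 ± 2.18 CPM in yap taz mutants and 16.9 ± 7.13 CPM in WT, and was not called (adjusted p = 0.179). Its log2 fold change was -0.67, and it was called lower in 3 alternatives (edgeR, adjusted p from 0.0309). The inhibitor gene spink4 had a log2 fold change of -0.97 (adjusted p = 0.0707), and was called lower in 5 alternatives (adjusted p from 0.00738 by edgeR). The amylase gene amy2al1 averaged 2.01 ± 0.921 CPM in yap taz mutants and 2.203 ± 0.191 CPM in WT, with a log2 fold change of -0.12 ± 0.335 (adjusted p = 0.818), whereas the point estimate of amy2a was -4.56. In yap taz mutants amy2al1 rested on 9 to 25 counts per library. Leaving out any 1 library gave 20 to 26 genes called lower.

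In yap mutants against WT, 1 of the 26 further genes was called lower, or 3.85% against 3.41% of all genes, and 0 were called higher. The count was 0 when yap mutant 1, yap mutant 4, WT 2 or WT 3 was left out and when the 8 libraries were fitted alone. The median of the 26 was -1.02, against 0.004 over all genes. Of the 26 point estimates 25 were below 0, and 18 were below 0 with an unadjusted edgeR p under 0.05. The share of all genes at that unadjusted threshold was not counted, for these or for later counts at it. Nothing further is therefore read from such counts. Among those not called, ctrb.1 stood at -0.79 (adjusted p = 0.172), prss1 at -1.06 (adjusted p = 0.0907), prss59.2 at -0.91 (adjusted p = 0.151) and CELA1 (ENSDARG00000017314) at -0.98 (adjusted p = 0.152).

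The count depended on how replicate numbers were treated. With the replicate number as a block, 18 of the 26 were called lower in yap mutants, against 6.14% of all genes. With the block and the 8 yap mutant and WT libraries alone, a fit added after seeing the data, 22 of the 25 genes tested were called lower, against 8.22% of all genes. The genes ctrb.1, prss1, prss59.2 and CELA1 passed in both blocked fits.

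Between yap taz mutants and yap mutants, 4 of the 26 were called lower, or 15.4% against 2.26% of all genes, with a median of -1.38 against -0.001 over all genes, and 26 of 26 point estimates were below 0. They were prss59.1 (-2.53, adjusted p = 0.0167), ela3l (-2.89, adjusted p = 0.028) and both SYCN genes (adjusted p = 0.0444 and 0.0449). Without yap mutant 4, 12 were called lower, and without any one of yap taz mutants 1 and 2 or yap mutants 2 and 3, 0 were by edgeR (10 to 14 at an unadjusted p under 0.05). With limma-voom 0 were called (9 at an unadjusted p under 0.05), and with DESeq2 6. Over all genes, edgeR calls in either direction went from 814 to 1087 without yap mutant 4, and to 441 without yap taz mutant 2. All comparisons against one group share its libraries, so they are not independent of one another.

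**Figure D3:**
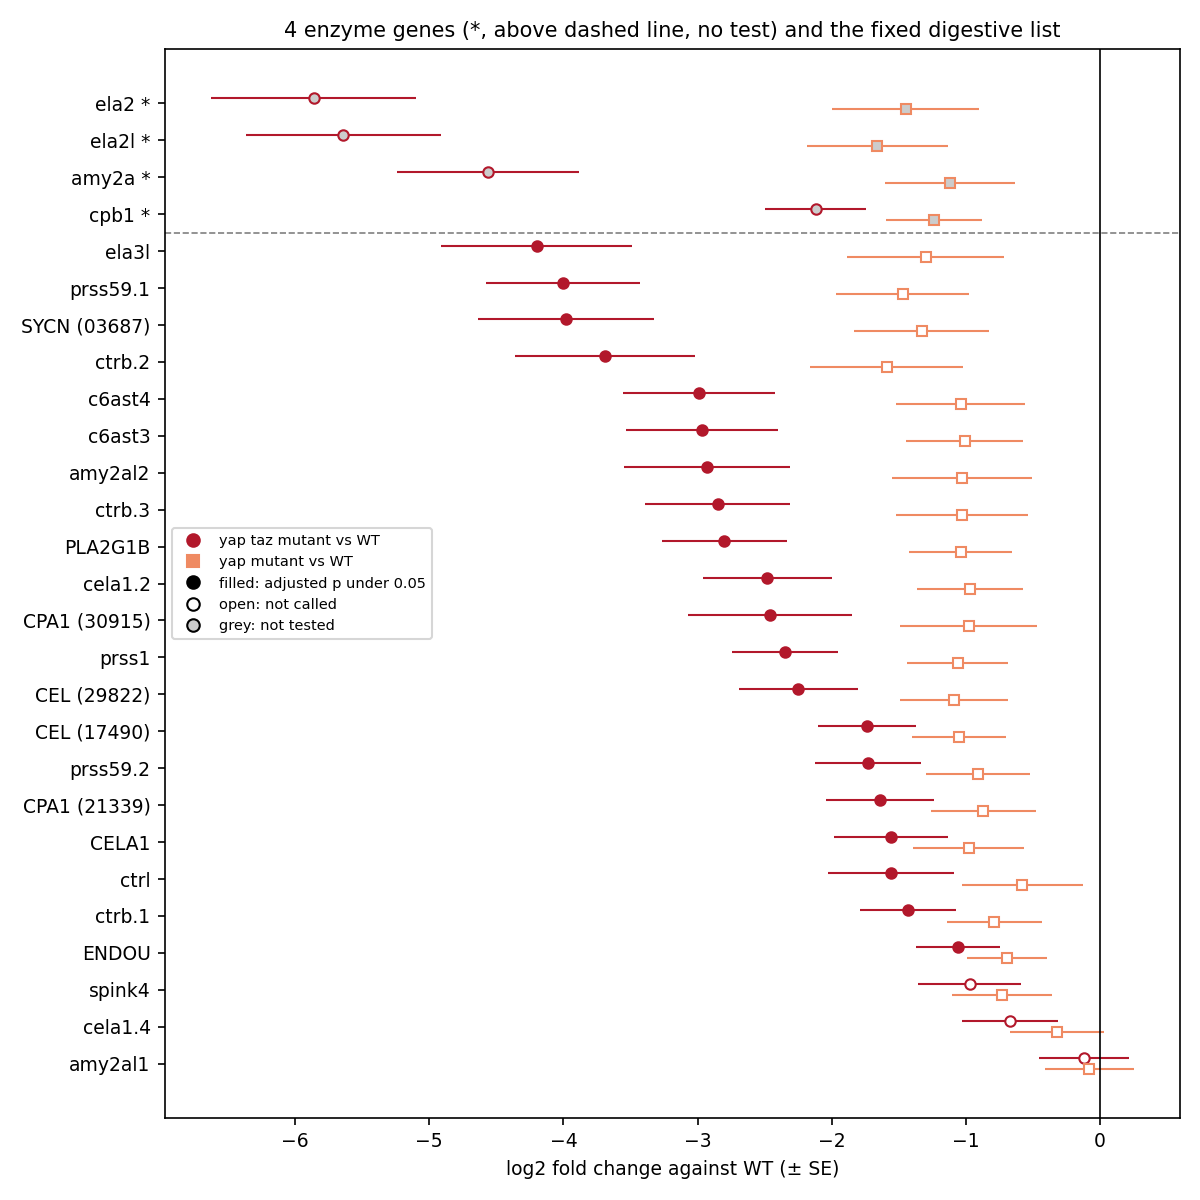
Log2 fold change against WT (± SE) of the 4 enzyme genes above the dashed line, which were not tested, and of 23 genes of the digestive list below it, for yap taz mutants (circles) and yap mutants (squares); filled symbols are called at an adjusted p under 0.05, and digits after a name are the end of its identifier. The SYCN gene with 2 counts in all yap taz mutants is among those not drawn. Point estimates for yap taz mutants run from -5.86 for ela2 to -0.12 for amy2al1, and the squares drawn for yap mutants are open or grey.

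Some digestive enzyme genes are also described by the ratio of the levels of paired genes within a library. These pairs were chosen after their values were seen and carry no test. Trypsin genes prss59.1 and prss59.2 are neighbours with 0 genes between them, and the ratio of prss59.1 to prss59.2 was 0.129 ± 0.0209 in yap taz mutants, 0.383 ± 0.14 in yap mutants and 0.613 ± 0.0704 in WT (SD, n = 4 each). It ran from 0.113 to 0.158 in yap taz mutants, from 0.41 to 0.485 in yap mutants 1 to 3 and from 0.512 to 0.672 in WT, and it was 0.178 in yap mutant 4. The ratio of ctrb.2 to its neighbour ctrb.1 was 0.0523 ± 0.0121 in yap taz mutants, 0.12 ± 0.084 in yap mutants and 0.236 ± 0.052 in WT. As for ela2 and ela2l, reads shared by these neighbouring copies may have been split or dropped.

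The ratio of ela2 to cpb1 was 0.0785 ± 0.0314 in yap taz mutants, 0.768 ± 0.345 in yap mutants and 0.969 ± 0.305 in WT. That of ela3l to cela1.4 was 0.898 ± 0.626 in yap taz mutants, 4.61 ± 2.61 in yap mutants and 9.63 ± 4.08 in WT. In these 4 pairs all yap taz mutant ratios lay below all WT ratios. Because the pairs were picked with these values known, and the share of other gene pairs was not counted, nothing further is read from this. The ratio of the amylase genes amy2al2 to amy2al1 did overlap, running from 0.84 to 7.11 in yap taz mutants and from 3.58 to 31.7 in WT.

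The highest and lowest libraries of the 4 enzyme genes recurred in the digestive list. Yap mutant 4 was the lowest yap mutant in 24 of 26 genes (92.3%), against 25% of all genes tested. It was the lowest in 73.1% of gut, 50% of hepatocyte, 42.9% of secretory, 38.9% of progenitor and duct, 37.5% of acinar factor and 11.8% of endocrine genes. WT 2 and WT 3 both lay above WT 1 and WT 4 in 23 of 26 genes (88.5%), against 27.6% of all genes tested. This held for 80.8% of gut, 60.7% of secretory, 50% of acinar factor, 40.9% of hepatocyte, 29.4% of endocrine and 22.2% of progenitor and duct genes. The first principal component over all genes also set WT 2 (-48.6) and WT 3 (-44.5) farthest from the mutants, with WT 1 at -35.3 and WT 4 at -27.4. The part of these library differences in the enzyme values was not tested.

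Transcription factors of acinar cells moved in both directions. Of 9 genes found, 8 were tested, and in yap taz mutants against WT 2 were called lower (25% against 13.8% of all genes) and 2 higher (13.9% of all genes). PTF1A, the factor that specifies and maintains acinar cells and is also made in hindbrain and retina, averaged 1.39 ± 0.375 CPM in yap taz mutants, 2.502 ± 0.739 CPM in yap mutants and 4.27 ± 1.71 CPM in WT. Its log2 fold change was -1.59 ± 0.329 for yap taz mutants over WT (edgeR, adjusted p = 0.00187), with no overlap, and -0.75 ± 0.297 for yap mutants over WT (adjusted p = 0.122), a comparison called when WT 4 or yap mutant 3 was left out (adjusted p = 0.0322 and 0.0489).

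HNF4A, a factor of liver, gut and pancreas, fell to 19.9 ± 3.04 CPM in yap taz mutants, against 31.2 ± 4.91 CPM in WT (-0.65 ± 0.156, adjusted p = 0.00518). XBP1, which drives the secretory machinery, averaged 309 ± 7.77 CPM in yap taz mutants and 247 ± 22.0 CPM in WT (0.32 ± 0.0737, adjusted p = 0.00387). The endoderm factor gene gata4 rose in yap taz mutants (5.63 ± 1.57 against 2.81 ± 0.742 CPM in WT, adjusted p = 0.0116) and in yap mutants (5.83 ± 1.88 CPM, adjusted p = 0.0246), the second call being lost without WT 3, WT 4 or yap mutant 1 (adjusted p up to 0.0962).

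The acinar factor gene RBPJL stood at 10.8 ± 0.888 CPM in yap taz mutants and 11.3 ± 0.634 CPM in WT and was not called (-0.07 ± 0.118, adjusted p = 0.718). NR5A2, at -0.29 ± 0.109, missed the threshold (adjusted p = 0.056) with no overlap between groups, and passed it in 7 alternatives (adjusted p from 0.0345). GATA6 (0.22, adjusted p = 0.174) was not called. BHLHA15, the Mist1 gene of secretory cells, was too low to test, at 0.654 ± 0.28 CPM in yap taz mutants, 0.981 ± 0.196 CPM in yap mutants and 0.88 ± 0.312 CPM in WT. Between yap taz mutants and yap mutants 1 of the 8 was called, XBP1, higher against 1.92% of all genes (0.29 ± 0.0737, adjusted p = 0.035), a call lost in 8 alternatives (adjusted p up to 0.106).

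Of 28 secretory pathway genes, 14 were called lower and 1 higher in yap taz mutants against WT, or 50% lower against 13.8% of all genes, with a median of -0.28. The protein disulfide isomerase gene pdia2, which in mammals is made mainly in pancreas, averaged 29.4 ± 5.86 CPM in yap taz mutants and 96.8 ± 42.1 CPM in WT (-1.72 ± 0.305, adjusted p = 0.000566). The chaperone gene CALR (ENSDARG00000076290) averaged 105 ± 13.1 CPM in yap taz mutants and 166 ± 2.74 CPM in WT (-0.66 ± 0.0881, adjusted p = 4.57e-05), and DNAJB11, a co-chaperone of the endoplasmic reticulum, had -0.61 ± 0.0828 (adjusted p = 5.54e-05). In yap mutants against WT 4 of the 28 were called lower, or 14.3% against 3.41% of all genes. That count was 1 without yap mutant 1, yap mutant 4, WT 2 or WT 3, 2 without yap mutant 2 or WT 1 or with the 8 libraries alone, and 7 without yap mutant 3 or with the 8 libraries alone and the block. Over all genes, calls in either direction went from 1780 to 942 without yap mutant 1, and to 3041 without yap mutant 3. With the 8 libraries alone and the block, 8.22% of all genes were called lower. Between yap taz mutants and yap mutants 1 of the 28 was called lower, or 3.57% against 2.26% of all genes. It was CALR (edgeR, adjusted p = 0.0414, lost in 9 alternatives, up to an adjusted p of 0.115). These genes are used by secretory cells of many tissues.

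In yap taz mutants against WT, more endocrine and duct genes of the pancreas were called higher than lower. Of 17 endocrine genes tested, 5 were called higher and 1 lower in that comparison (13.9% and 13.8% of all genes). The 1 called lower was 5.88% of those tested, below the share of all genes. The glucagon genes GCG (ENSDARG00000040907) and gcga rose, with log2 fold changes of 2.48 ± 0.156 and 2.16 ± 0.192 (adjusted p = 2.81e-08 and 8.54e-07). The beta cell zinc transporter gene SLC30A8 averaged 2.27 ± 0.819 CPM in yap taz mutants and 8.82 ± 2.08 CPM in WT (-1.97 ± 0.249, adjusted p = 2.82e-05). In yap mutants against WT 4 endocrine genes were called higher, against 5.72% of all genes, and 2 lower, or 11.8% against 3.41% of all genes. The 4 called higher became 2 without yap mutant 2, WT 1 or WT 4. The 2 called lower became 1 with the 8 libraries alone. SLC30A8 was called lower there too (-1.31 ± 0.231, edgeR, adjusted p = 0.00217), and in every alternative.

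Of 18 progenitor and duct genes, 7 were called higher and 2 lower in yap taz mutants against WT, beside 13.9% and 13.8% of all genes. The 2 called lower were 11.1% of those tested, below the share of all genes. The 7 became 3 without WT 2 or with no filter, and 4 without yap taz mutant 2 or yap taz mutant 4. The bicarbonate transporter genes listed as SLC4A4 went in opposite directions, with 1.13 ± 0.143 for ENSDARG00000044808 and -0.99 ± 0.1 for ENSDARG00000013730 (adjusted p = 2.82e-05 and 3.24e-06), and krt18b, an epithelial keratin gene, had 0.69 ± 0.116 (adjusted p = 0.000368).

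Gut genes fell as well, with a smaller median change. Of 26 enterocyte and gut genes tested, 20 were called lower and 0 higher in yap taz mutants against WT, or 76.9% against 13.8% of all genes, with a median log2 fold change of -1.27. MOGAT2, an enzyme of fat absorption, averaged 8.64 ± 0.987 CPM in yap taz mutants and 29.7 ± 9.18 CPM in WT (-1.78 ± 0.27, adjusted p = 0.00015). The brush border peptidase gene ANPEP (ENSDARG00000097285) averaged 2.05 ± 0.206 CPM in yap taz mutants and 7.47 ± 0.301 CPM in WT (-1.85 ± 0.16, adjusted p = 6.8e-07).

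In yap mutants against WT, 2 gut genes were called lower, or 7.69% against 3.41% of all genes. That count was 0 without yap mutant 1, yap mutant 4, WT 1 or WT 3 or with the 8 libraries alone by edgeR (6 to 14 at an unadjusted p under 0.05), 1 without WT 2, and 4, 5 and 7 without yap mutant 2, yap mutant 3 and WT 4. With the block 13 were called lower, against 6.14% of all genes, and with the block and the 8 libraries alone 18, against 8.22%. Calls over all genes, in either direction, also moved with the library left out. They went from 1780 to 942 without yap mutant 1, and to 3041 without yap mutant 3. The summed gut level ran from 3989 to 5056 CPM in yap taz mutants, 4772 to 5962 CPM in yap mutants and 4965 to 6489 CPM in WT. Within the yap mutants it was lowest in replicate 4. The part of gut tissue in the enzyme values was not tested.

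Liver genes were mixed. Of 22 hepatocyte genes tested, 10 were called higher and 6 lower in yap taz mutants against WT, beside 13.9% and 13.8% of all genes. The fibrinogen genes FGB and FGG, which the liver makes, rose by log2 1.73 ± 0.102 and 1.64 ± 0.0989 in yap taz mutants (adjusted p = 2.04e-08 and 2.52e-08). The protease inhibitor gene serpina1l fell to 56.7 ± 7.75 CPM in yap taz mutants, against 134 ± 28.4 CPM in WT (-1.24 ± 0.176, adjusted p = 8.23e-05). The summed hepatocyte level was 11639 ± 859 CPM in yap taz mutants, 10667 ± 503 CPM in yap mutants and 9605 ± 369 CPM in WT.

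The summed level of the 32 further digestive genes was 830 ± 151 CPM in yap taz mutants, 1717 ± 1043 CPM in yap mutants and 3456 ± 1873 CPM in WT. It ran from 644 to 984 CPM in yap taz mutants, from 543 to 2887 CPM in yap mutants (from 1214 without replicate 4) and from 1601 to 5796 CPM in WT, so that yap mutant 4, at 543 CPM, lay below all yap taz mutants. The 4 enzyme genes themselves summed to 38.4 to 61.5 CPM in yap taz mutants and to 54.9 CPM in yap mutant 4.

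**Figure D4:**
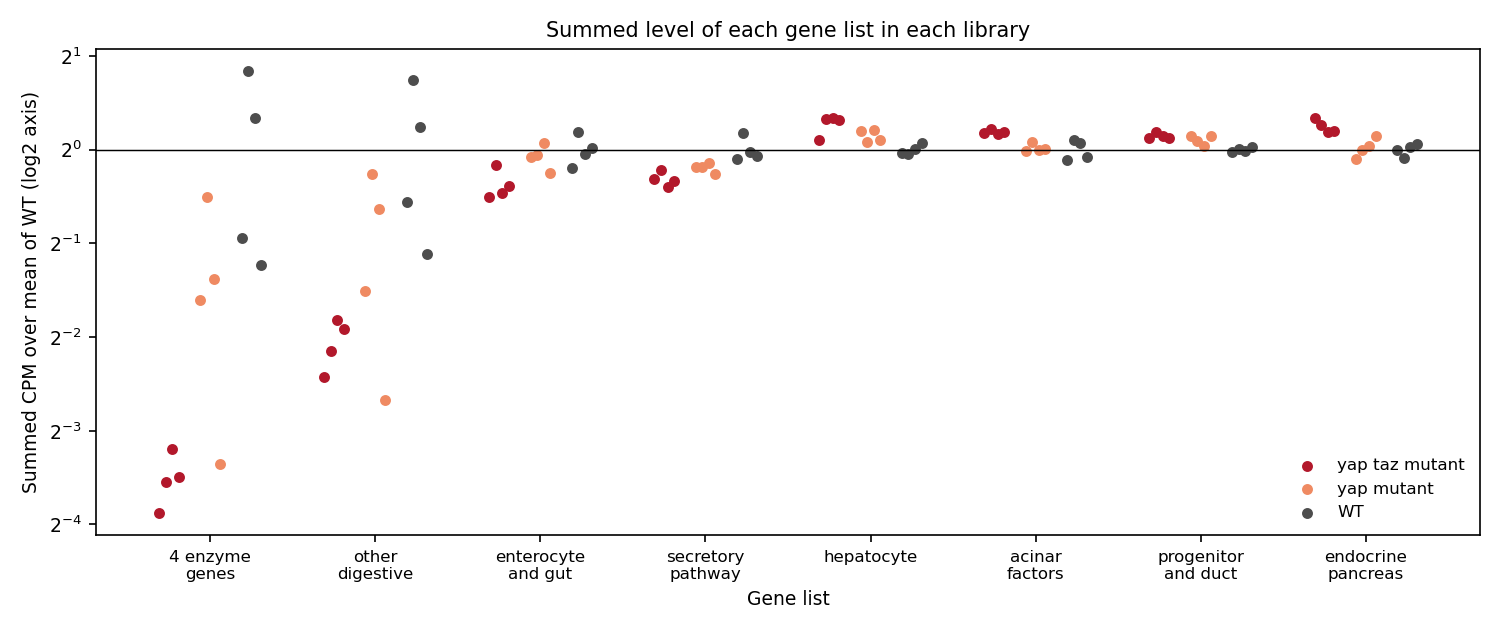
Summed CPM of each gene list in each library, divided by the mean of WT (log2 axis); red points are yap taz mutants, orange points yap mutants and grey points WT. The 4 enzyme genes sum to 49.5 ± 9.49 CPM in yap taz mutants and 563 ± 363 CPM in WT, and the gut list to 4377 ± 476 CPM in yap taz mutants and 5675 ± 632 CPM in WT.

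The genes most like the 4 enzyme genes were sought by the Pearson correlation, over the 12 libraries, of each gene's log2 CPM with the mean of the 4 standardised profiles. The 10 highest of 18227 genes ranked were SYCN (ENSDARG00000103687, 0.989), prss59.1 (0.984), sult1st6 (0.982), MOGAT2 (0.979), HADHA (0.978), PHYH (0.977), prss1 (0.977), dpp4 (0.974), ANKS4B (0.974) and ela3l (0.973). Of these, 4 are in the digestive list and 1 in the gut list. Of the 50 highest, 8 were digestive, 3 gut, 1 hepatocyte and 1 secretory, and 37 were in none of the lists. The 12 libraries share genotype and replicate differences, so these values describe likeness only. Among the 4 genes, cpb1 was the least like the mean that contains it (0.948, against 0.978 to 0.988 for the other genes).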

How the data were processed

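Per the submitters' processing notes, the tools were STAR 2.3.0e and HTSeq 0.6.0. No build, annotation, strand setting or counting mode is given in the sources used here. For each of 12 libraries the authors deposited unnormalized whole-number counts by Ensembl gene. Symbols came from the supplied table of names, and gene neighbours from the RefSeq table of assembly GRCz12tu. No sequences or coordinates were used.

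Genes passing filterByExpr (minimum count 10, minimum total 15) numbered 19493. After TMM scaling, edgeR 4.0.16 (R 4.3.3) fitted a quasi-likelihood model of genotype, with no block, to the 12 libraries together. The call threshold was a two-sided p under 0.05 after Benjamini-Hochberg adjustment over all genes tested, and every adjusted p here is from edgeR unless another tool is named. Fold changes are log2 ± SE, and log2 CPM had a prior count of 2. Nothing states that the libraries came from separate clutches, so p-values cover no more than their own spread, which may be technical. The fit was tested on simulated counts first.

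The 4 genes and the lists were chosen with earlier results of these data known. Of 171 list symbols 146 matched, in full or as a family name lacking the paralogue suffix. Named genes were the 4 enzyme genes, YAP1 and WWTR1, of the digestive list up to 8 called genes of smallest p per comparison against WT and up to 4 not called of highest level, the acinar factors tested, up to 3 called genes of each other list, and the 10 genes most like the enzyme genes. Some genes that this rule names are not reported here. Other genes in pair ratios were chosen after their values were seen. No 2 replicates agreed within sampling noise.

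Replicate numbers pair yap mutant and WT libraries: same-numbered libraries deviated together (r = 0.18, 0.306, 0.282 and 0.388, all above 0.1), which comes from the data and is not stated in the labels. Alternatives were other scalings, filters, the 8 libraries of a comparison alone, the replicate block, DESeq2 1.42.0, limma-voom 3.58.1 and each library left out.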

Additional observations from a re-analysis of the deposited data

Results flagged for a closer look

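Of 81 sets of 4 libraries of 1 gene examined, 3 held a library far from the other 3, by a gap to its neighbour over 0.829 of the whole range; chance flags about 1 in 20 such sets. GATA6 was at 16.5 CPM in yap mutant 4, below the other yap mutants. RBPJL was at 9.46 CPM in yap taz mutant 2, below the other yap taz mutants. SYCN (ENSDARG00000090899) was at 0.27 CPM in yap taz mutant 4, from 2 counts, with the other yap taz mutants at 0.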

How the results depend on the processing

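The fitted changes of the 4 enzyme genes kept their direction under all 21 alternatives. For yap mutants over WT, leaving out 1 library gave -2.17 to -0.91 for ela2, -1.99 to -1.09 for ela2l, -1.67 to -0.74 for amy2a and -1.61 to -0.96 for cpb1. For yap taz mutants over WT the counts held within 1.5 times: 4452 to 5731 genes and 20 to 26 digestive genes with a library left out, and 5169 to 6123 and 22 to 24 otherwise, against 5391 and 22. Other scalings moved the median of all genes by at most 0.022 (log2).

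For yap mutants against WT, the 1780 genes called became 1163 with the 8 libraries alone, 2758 with the replicate block and 3380 with both (added after seeing the data), and 942 (without yap mutant 1) to 3041 (without yap mutant 3) with a library left out. The 1 digestive gene called lower became 2 with no filter or limma-voom, 0 with the 8 libraries alone, 18 with the replicate block, 22 with both, and 0 (without yap mutant 4 or 1, or WT 3 or 2) to 8 (without WT 4).

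Between yap taz mutants and yap mutants the 814 genes became 1443 with the block, and 441 (without yap taz mutant 2) to 1087 (without yap mutant 4) with a library left out. The 4 digestive genes became 7 with no filter, 9 with the 8 libraries alone, 13 with the block, 7 with both, 0 with limma-voom, and 0 (without yap mutant 2 or 3, or yap taz mutant 1 or 2) to 12 (without yap mutant 4). The causes were not tested. Replicate numbers did not pair yap taz mutants with the other groups (r of -0.00482 to 0.166 with WT, and -0.00323 to 0.0648 with yap mutants), and not every library correlated best with its own number.

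Of the genes named, 27 of 27 calls held in every alternative for yap taz mutants over WT, 9 of 15 for yap mutants over WT and 6 of 15 between the mutants; 0 reversed. Low counts limit ela2, ela2l and amy2a in yap taz mutants.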
